A study of Rattus norvegicus with 2 samples.

Results

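The neurexins, neuroligins and other adhesion molecules that join the membranes of a synapse were measured as messenger RNA in cortical neurons from E18 rat embryos. The siYthdf3 group (1 library) received a small interfering RNA against Ythdf3, which encodes a reader of the m6A mark on messenger RNA, and the siNC group (1 library) received a negative control small interfering RNA. The labels give no other treatment, time, sex or strain, and do not say how many embryos or cultures stood behind a library. Genes were chosen by symbol from a named set of 9, namely Nrxn2, Nrxn3, Nlgn1, Nlgn2, Nlgn3, Lrrtm2, Cntnap2, Cadm1 and Ptprd. Of these, 8 had a row among the 21224 gene rows of the expression table, with 1 row each. No row carried the symbol Cntnap2, which was not analysed here.

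With 1 library per group no difference has a replicate check, so no test between conditions was possible. Levels are in FPKM, the reads of a gene per kilobase of its length, scaled to the library's total. Each ratio is FPKM in siYthdf3 over FPKM in siNC, and its 95% interval covers counting error only, not differences between cultures or library preparations. Depth was 22586543 assigned reads in siYthdf3 and 15392218 in siNC. The target Ythdf3 was at 6.93 FPKM in siYthdf3, against 9.38 FPKM in siNC (ratio 0.739, interval 0.675 to 0.809). The 13 pan-neuronal marker genes checked, such as Map2, Snap25 and Dcx, were all above 0 in both libraries. So were all progenitor, cell cycle and astrocyte markers checked, so this does not tell neurons from a mixed culture.

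Synaptic adhesion molecules reach across the cleft and hold the transmitting and receiving membranes together. Neurexins on the axon side bind neuroligins and LRRTM proteins on the dendrite side, and receptor phosphatases of the LAR type, such as the product of Ptprd, bind a second set of dendritic partners. Inside the cell, neurexins and neuroligins attach to PDZ scaffold proteins, through which they help to gather vesicles and receptors. Neuroligin 1 is known mainly from excitatory synapses, neuroligin 2 from inhibitory synapses and neuroligin 3 from both.

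Of the 8 genes, 6 were higher in siYthdf3 by small amounts, with ratios between 1.15 and 1.25 and counting intervals above 1. They were Nrxn2, Nrxn3, Nlgn3, Lrrtm2, Cadm1 and Ptprd. Nlgn1 and Nlgn2 had ratios of 0.990 and 0.987, with intervals that include 1. Such intervals lay above 1 for 20% and below 1 for 22.2% of the 13172 genes tested. Among the 8434 genes with at least as many reads as Lrrtm2, they lay above 1 for 26.5% and below 1 for 27.0%. None of the 8 was 1.5-fold apart, a size that 2.41% of the 13172 genes whose mean level reached 1 FPKM passed upward and 3.95% passed downward. In bulk RNA, a different share of neurons and a different amount of RNA per neuron cannot be told apart.

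RefSeq windows around the transcription start, from 250 bases before to 50 bases after it on the GRCr8 assembly, were found for 5 of the 8 genes. The windows of the 3 neuroligins are shown because these paralogues differed in their ratios, with CpG dinucleotides in capitals. The window of Lrrtm2 is shown because it held the cyclic AMP response element TGACGTCA, which is in capitals there. They lie at chr2:110930627-110930926 (Nlgn1, minus strand), chr10:55056529-55056828 (Nlgn2, minus strand), chrX:70469228-70469527 (Nlgn3, plus strand) and chr18:27096918-27097217 (Lrrtm2, minus strand).
Nlgn1: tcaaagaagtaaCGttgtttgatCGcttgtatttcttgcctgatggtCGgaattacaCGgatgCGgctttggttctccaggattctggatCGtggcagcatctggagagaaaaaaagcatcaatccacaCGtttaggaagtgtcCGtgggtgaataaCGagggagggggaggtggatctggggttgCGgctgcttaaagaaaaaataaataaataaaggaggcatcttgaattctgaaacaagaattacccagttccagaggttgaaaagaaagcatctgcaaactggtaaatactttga
Nlgn2: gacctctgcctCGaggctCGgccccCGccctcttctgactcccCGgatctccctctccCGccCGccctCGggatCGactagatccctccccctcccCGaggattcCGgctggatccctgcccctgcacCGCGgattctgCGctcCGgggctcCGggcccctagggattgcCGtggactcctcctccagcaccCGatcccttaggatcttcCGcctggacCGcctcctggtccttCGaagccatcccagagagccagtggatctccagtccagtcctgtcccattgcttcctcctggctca
Nlgn3: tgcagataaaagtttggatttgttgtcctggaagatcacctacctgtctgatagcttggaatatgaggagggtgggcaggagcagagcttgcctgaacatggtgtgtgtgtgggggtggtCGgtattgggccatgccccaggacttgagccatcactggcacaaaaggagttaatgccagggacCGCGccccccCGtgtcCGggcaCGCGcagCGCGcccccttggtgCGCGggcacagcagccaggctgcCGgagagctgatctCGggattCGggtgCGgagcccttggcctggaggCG
Lrrtm2: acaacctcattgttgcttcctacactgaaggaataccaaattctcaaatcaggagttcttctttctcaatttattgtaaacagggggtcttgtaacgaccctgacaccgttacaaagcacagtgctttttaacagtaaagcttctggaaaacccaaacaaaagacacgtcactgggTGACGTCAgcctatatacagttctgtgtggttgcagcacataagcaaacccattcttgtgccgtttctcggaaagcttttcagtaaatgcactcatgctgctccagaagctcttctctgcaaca

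The neuroligin windows differ in base composition. That of Nlgn1 held 10 CpG dinucleotides at a GC content of 43.3%, that of Nlgn2 held 20 at 67.3% and that of Nlgn3 held 16 at 61.7%, where the median of 33469 windows was 7 at 51.7%. The part of base composition in the ratios was not tested. The motifs searched, on both strands, were the TEAD motif CATTCC, the cyclic AMP response element TGACGTCA, the TATA motif TATAAA and the E-box CACGTG. The TEAD motif is in 14.2% of all windows, the cyclic AMP response element in 1.83%, the TATA motif in 14.2% and the E-box in 6.42%. Among the 6 windows of the 5 genes, 2 of which belong to Ptprd, the cyclic AMP response element was in the Lrrtm2 window alone, the TATA motif was in 1 window of Ptprd, and the TEAD motif and E-box were in 0. No window held more than 1 match, so none overlap. These matches describe letters only.

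On the axon side, Nrxn2 was the more abundant of the 2 neurexins described. Nrxn2 (ENSRNOG00000021103, chromosome 1, 203735753 to 203842249, plus strand) encodes a presynaptic receptor for neuroligins and LRRTM proteins. It was at 22.3 FPKM in siYthdf3, from 3727 reads, and at 19.4 FPKM in siNC, from 2208 reads. The ratio was 1.15 (interval 1.09 to 1.21). The siYthdf3 level was the higher, and the counting intervals of the 2 levels did not overlap. The same held for Nrxn3, Ptprd, Nlgn3 and Cadm1, whereas the level intervals of Lrrtm2, Nlgn1 and Nlgn2 overlapped. All coordinates of gene rows are the authors', and the sources used here do not name their genome build.

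Nrxn3 (ENSRNOG00000047574, chromosome 6, 107641780 to 109272044, plus strand), a related presynaptic receptor, was lower in both libraries. It was at 5.0 FPKM in siYthdf3, against 4.30 FPKM in siNC, from 1078 reads in siYthdf3 and 632 reads in siNC, with a ratio of 1.16 (interval 1.05 to 1.28). The 2 neurexins thus had close ratios, and that of Nrxn3 over that of Nrxn2 was 1.01 (interval 0.903 to 1.13). Nrxn3 made up 18.3% of their summed FPKM in siYthdf3 and 18.2% in siNC.

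Ptprd (ENSRNOG00000005711, chromosome 5, 90048966 to 92369396, minus strand) encodes protein tyrosine phosphatase receptor type D, an axonal receptor of the LAR family that binds Slitrk proteins and IL1RAPL1. It had the most reads of the 8 genes, 6089 in siYthdf3 and 3394 in siNC. Its level was 23.1 FPKM in siYthdf3, against 18.9 FPKM in siNC, and the ratio was 1.22 (interval 1.17 to 1.28). With the most reads, this interval was the narrowest of the 8 on the log scale.

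**Figure D1:**
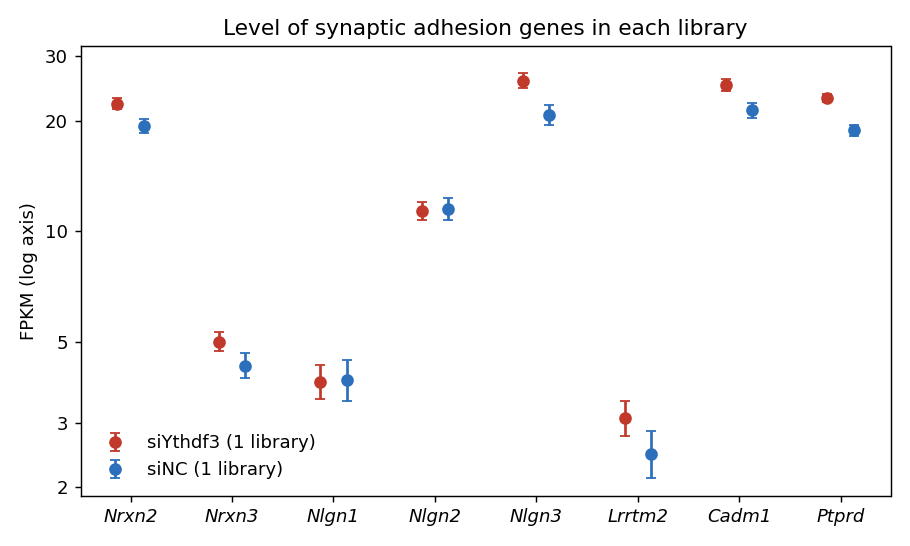
FPKM on a log axis for 8 synaptic adhesion genes, with 1 point per library (siYthdf3 left, siNC right) and exact 95% counting intervals as bars. The siYthdf3 point is higher for all but Nlgn1 and Nlgn2, whose points lie side by side.

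On the dendrite side the neuroligins differed among themselves. Nlgn3 (ENSRNOG00000003812, chromosome X, 66429458 to 66451876, plus strand), known from excitatory and inhibitory synapses, was at 25.7 FPKM in siYthdf3, against 20.8 FPKM in siNC, from 1851 reads in siYthdf3 and 1017 reads in siNC. Its ratio was 1.24 (interval 1.15 to 1.34). Of the 13172 genes, 9.66% had a log2 ratio at least as high.

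Nlgn2 (ENSRNOG00000015430, chromosome 10, 54544588 to 54557854, minus strand), which helps to gather gephyrin and GABA-A receptors at inhibitory synapses, was at 11.3 FPKM in siYthdf3, against 11.5 FPKM in siNC. It rested on 1165 reads in siYthdf3 and 804 reads in siNC, and the ratio was 0.987 (interval 0.902 to 1.08). Nlgn1 (ENSRNOG00000032576, chromosome 2, 108257824 to 109002464, minus strand), a partner of the scaffold PSD-95 at excitatory synapses, was at 3.88 FPKM in siYthdf3, against 3.92 FPKM in siNC. It rested on 343 reads in siYthdf3 and 236 reads in siNC, with a ratio of 0.990 (interval 0.837 to 1.17). The Nlgn1 interval is wide enough to hold the ratio of Nrxn2 or Nrxn3, so for Nlgn1 a difference of that size was not detectable at this depth. The Nlgn2 interval ends below those ratios.

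Set against each other, the ratio of Nlgn3 was 1.26 times that of Nlgn2 (interval 1.11 to 1.42) and 1.25 times that of Nlgn1 (interval 1.04 to 1.51). The ratio of Nlgn1 was 1.00 times that of Nlgn2 (interval 0.827 to 1.22). Nlgn3 was the leading neuroligin in both libraries, with 62.8% of the summed FPKM of the 3 genes in siYthdf3 and 57.4% in siNC. Nlgn2 took 27.7% in siYthdf3 and 31.8% in siNC, and Nlgn1 took 9.47% in siYthdf3 and 10.8% in siNC.

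**Figure D2:**
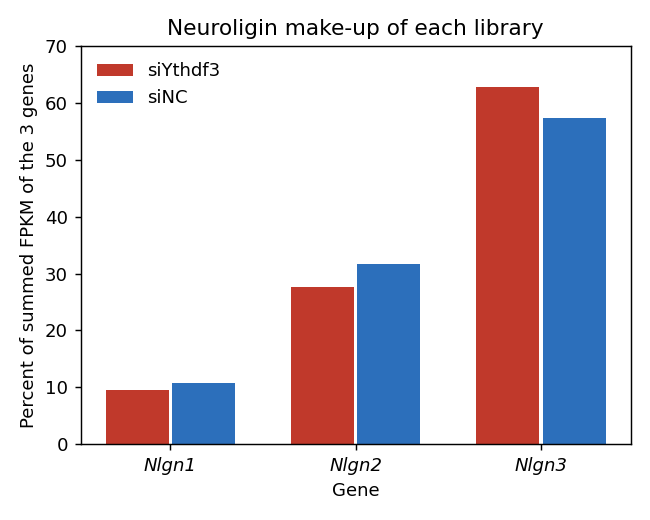
Each neuroligin gene as a percent of the summed FPKM of Nlgn1, Nlgn2 and Nlgn3, with 1 bar per library (siYthdf3 left, siNC right). Nlgn3 takes 62.8% in siYthdf3 and 57.4% in siNC, and the other 2 genes take less in siYthdf3.

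Lrrtm2 (ENSRNOG00000047085, chromosome 18, 26817816 to 26822864, minus strand) encodes a leucine-rich repeat protein of excitatory synapses that binds neurexins in competition with neuroligins. It was the lowest of the 8 genes, at 3.09 FPKM in siYthdf3, against 2.47 FPKM in siNC, from 329 reads in siYthdf3 and 179 reads in siNC. The FPKM ratio of 1.25 was the highest of the 8 and its interval, 1.04 to 1.51, was the widest of the 6 that lie above 1. The Lrrtm2 row lies inside the span of Ctnna1, which is on the opposite strand. Ctnna1, which encodes alpha-catenin, was at 46.0 FPKM in siYthdf3, against 49.6 FPKM in siNC (ratio 0.928, interval 0.884 to 0.975). Ctnna1 was thus the lower in siYthdf3, opposite in direction to Lrrtm2. The sources used here do not say whether counting used strand, and the part of Ctnna1 reads in the Lrrtm2 value was not tested.

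Cadm1 (ENSRNOG00000018778, chromosome 8, 47847325 to 48182833, plus strand) encodes SynCAM 1, an immunoglobulin adhesion protein found on both sides of the synapse. It was at 25.04 FPKM in siYthdf3, against 21.4 FPKM in siNC, from 3002 reads in siYthdf3 and 1745 reads in siNC, with a ratio of 1.17 (interval 1.10 to 1.24). The counting intervals of the 2 levels did not overlap. Rows that overlap a member were also present for Nrxn3, Nlgn2 and Ptprd. The 2 rows that overlap Nlgn2, Spem1 at a ratio of 0.896 (interval 0.787 to 1.02) and Tmem256 at 1.09 (interval 0.964 to 1.23), had intervals that include 1. Those within Nrxn3 and Ptprd held at most 28 reads in a library.

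**Figure D3:**
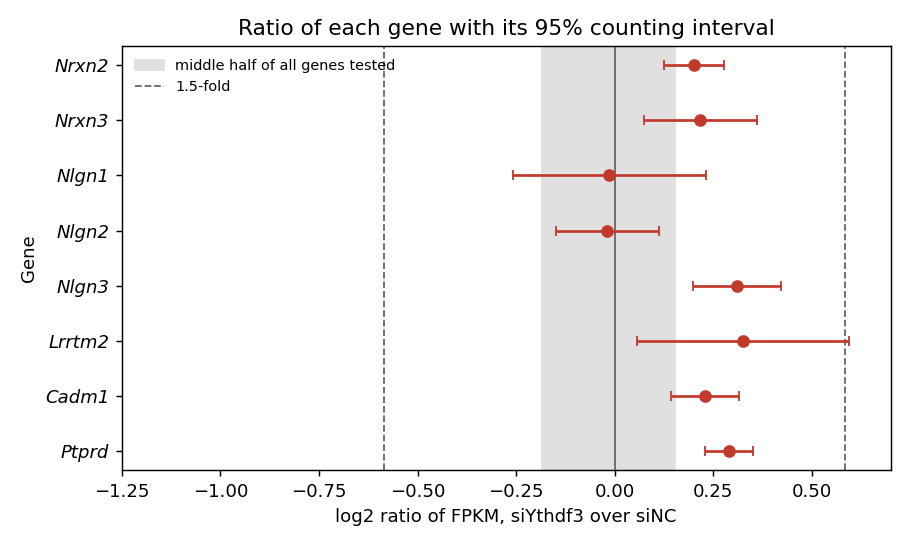
The log2 ratio of FPKM, siYthdf3 over siNC, for each gene (point) with its exact 95% counting interval (bar), beside the range between the quartiles of all genes tested (grey) and the 1.5-fold limits (dashed). The points of Nlgn1 and Nlgn2 lie near 0 and the other 6 lie to the right of the grey range, inside the 1.5-fold limit.

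By level, 4 genes lay at the top, Nlgn2 lay between, and Nrxn3, Nlgn1 and Lrrtm2 were lowest. In siYthdf3 the order was Nlgn3, Cadm1, Ptprd, Nrxn2, Nlgn2, Nrxn3, Nlgn1 and Lrrtm2, and in siNC it was Cadm1, Nlgn3, Nrxn2, Ptprd, Nlgn2, Nrxn3, Nlgn1 and Lrrtm2. Among the top 4 the neighbours were close. In siYthdf3 the interval of the level ratio lay above 1 for Cadm1 over Ptprd alone (1.09, interval 1.04 to 1.13), and in siNC it included 1 for all 3 pairs of neighbours. Nrxn3 exceeded Nlgn1 by 1.29 times in siYthdf3 (interval 1.14 to 1.46), and by 1.10 times in siNC, where the interval of 0.944 to 1.28 includes 1. The other neighbours, Nlgn2 below the top 4, Nrxn3 below Nlgn2 and Lrrtm2 below Nlgn1, were set apart beyond counting error in both libraries.

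Counting intervals lay above 1 for 6 of the 8 genes and below 1 for 0. Over all 13172 genes they lay above 1 for 20% and below 1 for 22.2%. Among the 8434 genes with at least 508 reads over both libraries, the number that Lrrtm2 had, they lay above 1 for 26.5% and below 1 for 27.0%. Such intervals are common at this depth, and the genes were picked as a family with results of these libraries known, so the count is a description. On the scale of log2(FPKM + 0.5), where 0.5 FPKM is added to each value, the median of the 8 was 0.21, against -0.01 over all genes, whose quartiles were -0.17 and 0.14. The 6 genes stood between percentile 81.5 (Nrxn3) and percentile 90.3 (Nlgn3) of all genes, Nlgn1 at 49.9 and Nlgn2 at 49.0. Of the 28 pairs among the 8 genes, the interval of the ratio of ratios lay above 1 for 8, without adjustment for the number of pairs. Each of these 8 pairs had Nlgn1 or Nlgn2 as its lower gene, and in the 15 pairs without either of them it included 1. With Nlgn1 as the lower gene these were the pairs with Nlgn3 and Ptprd, and the others had Nlgn2.

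Of the 8 genes, 4 lie in very long stretches of the genome, and ratios in this table were higher in longer genes. Genomic span, from the first to the last base of a gene, reached 2320 kilobases for Ptprd, 1630 for Nrxn3, 745 for Nlgn1 and 336 for Cadm1, all in the top of 10 bins of span. The median log2 ratio was 0.13 in that bin, which starts at 128 kilobases, and -0.09 in the second lowest bin, where Lrrtm2 lies with a span of 5.05 kilobases. Within their own span bins, Lrrtm2 stood at percentile 92.0 and Nlgn3 (22.4 kilobases) at percentile 93.5. Nrxn3 stood at 61.4, Cadm1 at 65.9, Ptprd at 75.4, Nrxn2 at 75.8 and Nlgn2 at 60.1, while Nlgn1 stood at 26.0. The median over the 8 genes was 0.08 once the trend with span was removed and 0.12 once the trend with gene length was removed, against 0.21 as measured. With the span trend removed, the log2 ratio was 0.34 for Nlgn3, 0.37 for Lrrtm2, 0.11 for Ptprd, 0.10 for Nrxn2, 0.05 for Cadm1, 0.02 for Nrxn3, 0.04 for Nlgn2 and -0.18 for Nlgn1. Removing the trend brought the long genes Nrxn3 and Cadm1 near 0, and left Nlgn3 and Lrrtm2 higher than as measured. Nlgn2 then lay between Nrxn3 and Cadm1, whereas as measured it was below both. The intervals for pairs of genes used ratios as measured, with no trend removed.

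**Figure D4:**
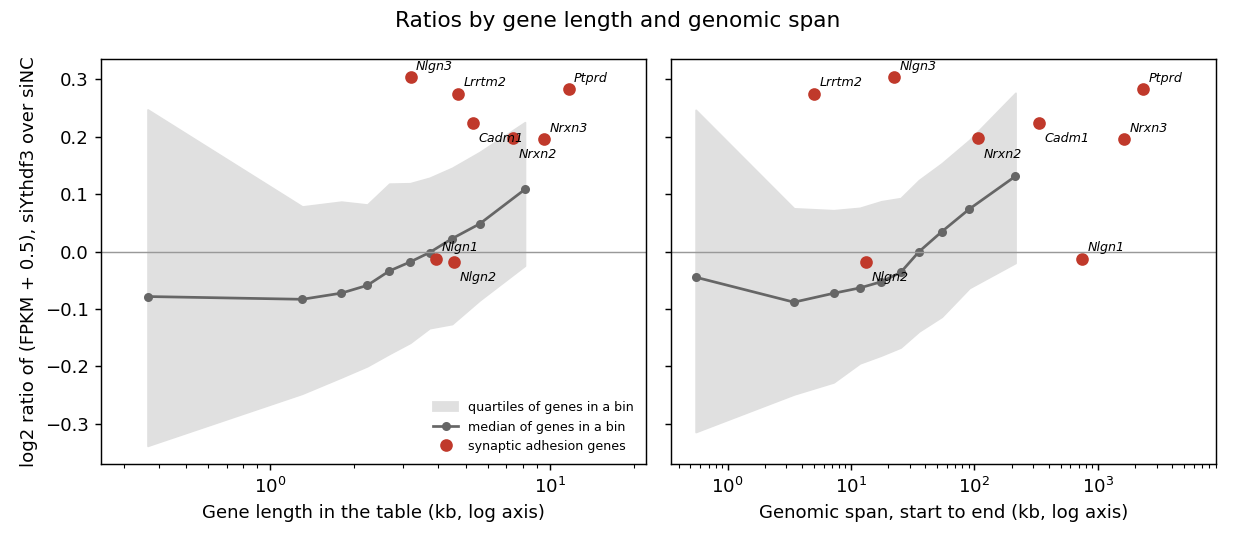
The log2 ratio of (FPKM + 0.5), siYthdf3 over siNC, against gene length (left) and genomic span (right) on log axes in kilobases, for the 8 genes (red) and for 10 bins of all genes tested (grey line: median, shading: quartiles). The bin medians climb to 0.13 at the longest spans, and Nlgn3 and Lrrtm2 lie above the shading at short spans.

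The library labelled siYthdf3 also differed in its markers of cell types. Pan-neuronal markers summed to 1372 FPKM in siYthdf3, against 1201 FPKM in siNC, with 11 of 13 above 0 on the log2 scale and a median of 0.22, close to the 0.21 of the adhesion genes. The 13 markers were spread, with ratios from 0.956 (Elavl4) to 1.42 (Nefm). Radial glia and progenitor markers summed to 1407 FPKM in siYthdf3, against 2087 FPKM in siNC, with 10 of 11 below 0. All 13 cell cycle genes were at least 1.5-fold lower, summing to 212 FPKM in siYthdf3, against 414 FPKM in siNC. Astrocyte markers summed to 257 FPKM in siYthdf3, against 188 FPKM in siNC, with 4 of 9 above 0 and a median of -0.04. Gfap carried that sum, at 141 FPKM in siYthdf3, against 68.2 FPKM in siNC, and without it the other 8 summed to 116 FPKM in siYthdf3 and 120 FPKM in siNC. Oligodendrocyte lineage markers summed to 62.3 FPKM in siYthdf3 and 76.2 FPKM in siNC, with 7 of 8 tested below 0. Mog, the marker not below 0, carried much of both sums, at 39.0 FPKM in siYthdf3, against 37.8 FPKM in siNC. The 8 microglia markers summed to 4.13 FPKM in siYthdf3, where 1 was at 0, and 8.01 FPKM in siNC. Pericyte, fibroblast and endothelial markers summed to 11.6 FPKM in siYthdf3, against 11.1 FPKM in siNC, although 3 of 4 tested were below 0, with a median of -0.39. Myh11 carried that sum, at 7.70 FPKM in siYthdf3, against 5.02 FPKM in siNC, and without it the other 6 summed to 3.95 FPKM in siYthdf3 and 6.12 FPKM in siNC. The part of cell make-up in the ratios of the adhesion genes was not tested.

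Per 1000 FPKM of the summed pan-neuronal markers, Nlgn3 was at 18.8 in siYthdf3 and 17.3 in siNC, and Nrxn2 at 16.2 in siYthdf3 and 16.1 in siNC. Nlgn2 was at 8.26 in siYthdf3 and 9.56 in siNC, and Nlgn1 at 2.83 in siYthdf3 and 3.26 in siNC. Relative to these markers, the ratios of the 6 higher genes came to between 1.01 (Nrxn2) and 1.10 (Lrrtm2), and those of Nlgn2 and Nlgn1 to 0.864 and 0.867. These values depend on the markers chosen. The summed markers had a ratio of 1.14 with all 13 and of 1.08 without Map2 and Nefm, and 5 of the 13 single marker ratios lay inside the counting interval of the Nlgn2 ratio.

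Genes that work with these proteins had list medians above 0, between 0.09 and 0.17. These medians were not adjusted for genomic span. Over all genes, the bin of longest spans, from 128 kilobases, had a median of 0.13. The part of span in the list medians was not tested. Among extracellular ligands and partners of neurexins and LAR-type receptors, 42 of 46 listed genes passed the minimum of 1 FPKM. Their median log2 ratio was 0.16, with 20 of 42 counting intervals above 1 and 2 below (all genes: 20% above and 22.2% below), 0 genes at least 1.5-fold higher and 1 at least 1.5-fold lower. That gene was Gpc4, a glypican whose heparan sulfate chains bind synaptic receptors, at 15.0 FPKM in siYthdf3, against 27.1 FPKM in siNC (ratio 0.554, interval 0.503 to 0.610). Clstn2, a postsynaptic calsyntenin, was at 14.0 FPKM in siYthdf3, against 9.68 FPKM in siNC (ratio 1.44, interval 1.32 to 1.58). Igsf21, which binds neurexin 2 at inhibitory synapses of the mouse, was at 4.56 FPKM in siYthdf3, against 3.39 FPKM in siNC (ratio 1.34, interval 1.06 to 1.72). The teneurin Tenm4 was at 17.0 FPKM in siYthdf3, against 13.3 FPKM in siNC (ratio 1.28, interval 1.21 to 1.36). The 4 genes named here were taken for the largest differences among the 42, so their ratios are the extremes of the list. Apart from Gpc4, they had ratios from 1.28 to 1.44. The list median of 0.16 was below the 0.21 of the 8 adhesion genes.

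Contactins, CNTNAP and nectin-like relatives, of which 17 of 23 passed the minimum, had a median of 0.17, with 0 genes 1.5-fold apart. Intervals lay above 1 for 8 of 17 and below 1 for 3, against 20% and 22.2% of all genes. The contactins Cntn3 and Cntn1, which are anchored adhesion proteins of axons, had ratios of 1.37 (interval 1.09 to 1.72) and 1.28 (interval 1.16 to 1.41). Cadm2, a relative of Cadm1, was at 15.7 FPKM in siYthdf3, against 12.4 FPKM in siNC (ratio 1.27, interval 1.15 to 1.40). The more abundant relatives Cadm3 and Cadm4 had ratios of 1.01 (interval 0.961 to 1.06) and 0.963 (interval 0.919 to 1.01). Epb41l2, which encodes a protein 4.1 adaptor between membrane proteins and actin, was at 25.1 FPKM in siYthdf3, against 33.7 FPKM in siNC (ratio 0.747, interval 0.707 to 0.790). Cntn3, Cntn1, Cadm2 and Epb41l2 were taken for the largest differences among the 17.

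Intracellular scaffolds and effectors, of which 33 of 34 passed the minimum, had a median of 0.14. Intervals lay above 1 for 19 of 33 and below 1 for 5, against 20% and 22.2% of all genes. The gene that was at least 1.5-fold higher was Lin7a, a PDZ partner of the neurexin-binding kinase CASK, at 1.94 FPKM in siYthdf3, against 1.01 FPKM in siNC from 48 reads in siYthdf3 and 17 reads in siNC. Its interval of 1.09 to 3.57 was wide. Ppfia2 encodes liprin-alpha-2, which binds LAR-type phosphatases such as that of Ptprd. It was at 46.8 FPKM in siYthdf3, against 36.9 FPKM in siNC (ratio 1.27, interval 1.22 to 1.32). Its relative Ppfia1 went the other way, at 43.2 FPKM in siYthdf3, against 47.4 FPKM in siNC (ratio 0.910, with an interval below 1). Ppfia3 and Ppfia4 had ratios of 1.03 and 1.22, with intervals that include 1. Of the other LAR-type receptor genes, Ptprs had a ratio of 1.01 (interval 0.982 to 1.05) and Ptprf of 1.11 (interval 1.06 to 1.17). The postsynaptic scaffold gene Dlgap2 had a ratio of 1.34 (interval 1.13 to 1.59).

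Genes that splice, shed or modify neurexins and neuroligins, of which all 24 passed the minimum, had a median of 0.09. Intervals lay above 1 for 10 of 24 and below 1 for 3, against 20% and 22.2% of all genes. The 2 that were at least 1.5-fold lower were Mmp9, a protease that cleaves neuroligin 1 in the mouse, and Ptbp1, a splicing repressor of progenitors. Mmp9 was at 2.53 FPKM in siYthdf3, against 4.85 FPKM in siNC (ratio 0.521, interval 0.426 to 0.637). Ptbp1 was at 9.66 FPKM in siYthdf3, against 15.1 FPKM in siNC (ratio 0.641, interval 0.586 to 0.702), in the library whose progenitor markers were also lower. Khdrbs2, which encodes the neurexin splicing factor SLM1, had a ratio of 1.33 (interval 1.19 to 1.49), and the neuronal splicing factor Nova2 had a ratio of 1.31 (interval 1.17 to 1.48). Mmp9, Ptbp1, Khdrbs2 and Nova2 were taken for the largest differences among the 24. The table holds 1 value per gene, so neurexin isoforms were not measured.

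**Figure D5:**
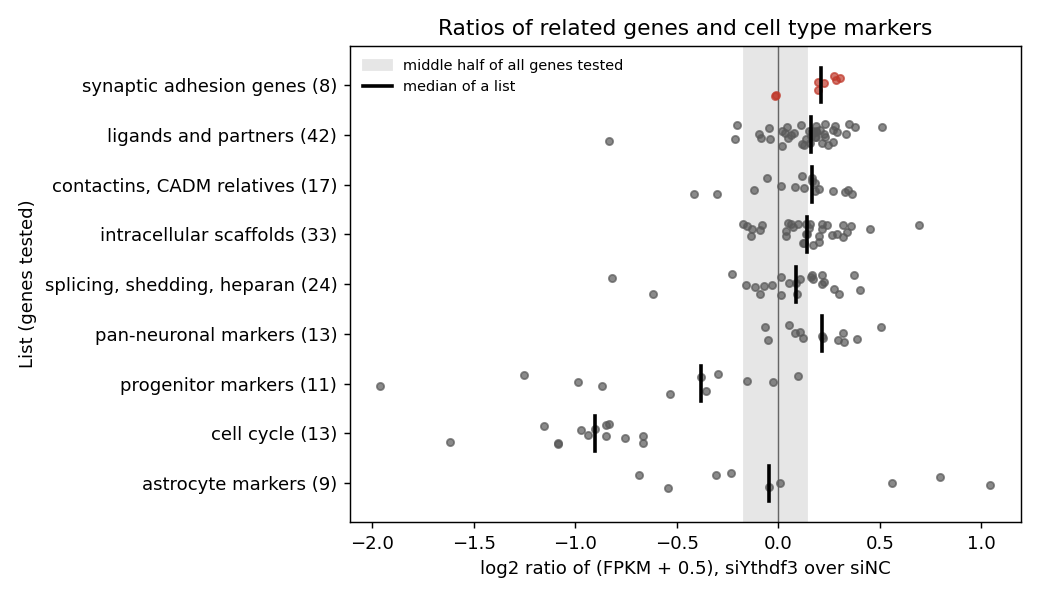
The log2 ratio of (FPKM + 0.5), siYthdf3 over siNC, of each gene tested (points) in the 8 adhesion genes (red), 4 lists of related genes and 4 lists of markers, with the median of each list (black bar) and the range between the quartiles of all genes (grey). The adhesion genes and pan-neuronal markers have medians of 0.21 and 0.22, and the cell cycle genes lie wholly to the left.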

How the data were processed

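Messenger RNA was measured in 1 siYthdf3 and 1 siNC library, grouped by their titles. Per the labels' protocols, a digital kit tagged each cDNA with a random molecular identifier before sequencing. The sources used here do not say whether reads were collapsed by it. Tools in the submitters' processing notes are STAR 2.7.6a, StringTie 2.1.4, Subread 1.5.1 with featureCounts, fastp 0.23.2 and edgeR 3.40.2, with no roles given. The authors deposited FPKM per gene, per the file headers.

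FPKM times gene length gave whole reads for 100% of values, within 0.05 of a read. These reads set depth and exact 95% intervals (Clopper-Pearson for ratios, Poisson for levels, conditional odds ratios between genes), which cover counting error only. The intervals take each read as an independent count, and would be too narrow if duplicate reads were not collapsed. No count test was run. Log2 ratios used a pseudocount of 0.5 FPKM, which understates differences of low genes. Of 21224 gene rows, 13172 had a mean level of 1 FPKM or more and entered.

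The genes and lists were chosen with earlier results of these data known. Named beside the members are Ythdf3, the 4 genes of each related list with the largest differences, and any 2-fold apart. A gene that this rule takes is not reported here. Genes named beyond these (Ctnna1, Spem1, Tmem256, Cadm3, Cadm4, Ppfia1, Ppfia3, Ppfia4, Ptprs, Ptprf and the markers) were chosen after their values were seen or as examples of a list. The calculation was tested on simulated data. Alternatives were pseudocounts of 0.1 and 1 FPKM, ratios centred on their median, subtraction of a trend with gene length, thinning of the deeper library, TPM, summed rows, scaling that leaves out mitochondrial genes and the 20 genes with most reads, other filters and a 2-fold limit. Removal of a trend with genomic span, and marker sums without Map2 and Nefm, Gfap or Myh11, were added after the data were seen. Promoter windows came from RefSeq (GRCr8), matched by symbol. Python 3.11.15 was used with numpy 2.4.6, pandas 2.3.3, scipy 1.17.1 and matplotlib 3.10.9.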

Additional observations from a re-analysis of the deposited data

How the results depend on the processing

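No paired analysis was possible because each group had 1 library. For the same reason no library could be left out. None of the 8 genes was 1.5-fold apart under any setting run for them. Nlgn3 ranged from 0.30 to 0.36, Lrrtm2 from 0.24 to 0.37, Nlgn2 from -0.05 to 0.04 and Nlgn1 from -0.18 to 0.03 on the log2 scale, inside their counting intervals. Removing a trend with gene length gave 0.11 for Nrxn2, 0.049 for Nrxn3 and 0.14 for Ptprd. Removing a trend with genomic span gave 0.10 for Nrxn2, 0.025 for Nrxn3, 0.054 for Cadm1, 0.11 for Ptprd and 0.077 for the median of the 8. These values follow from subtracting the medians of long genes. The percent of all genes at least 1.5-fold higher, 2.41 as reported, was 5.38 after rescaling to TPM, 3.80 with no filter, 1.03 at a mean of at least 5 FPKM and 1.30 among protein-coding genes. At a 2-fold limit it was 0.706, with 0.896 lower. Depth limits Nlgn1 and Lrrtm2 most, with 579 and 508 reads over both libraries. The ratio of summed marker levels was 1.08 for pan-neuronal markers without Map2 and Nefm (1.14 with them), 0.963 for astrocyte markers without Gfap (1.36 with it) and 0.646 for pericyte, fibroblast and endothelial markers without Myh11 (1.05 with it).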
